A study of Mus musculus with 6 samples.

Results

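The cells described here were chosen by their measured transcripts, as monocytes: those of Csf1r, the receptor for the growth factor CSF1, and of genes known from blood monocytes. A cell was taken from all 6 liver libraries if it held at least 1 unique molecular identifier (UMI, 1 counted RNA molecule) of Csf1r. It also had to hold at least 2 UMIs of Lyz2, a lysozyme of myeloid cells, and at least 3 UMIs in the sum of Ly6c2, Ccr2, F13a1, Fn1, Cx3cr1, Ace and Treml4. The cell had to hold under 5 UMIs of C1qa, C1qb and C1qc in sum and at most 1 of Cd209a, Clec10a and Mgl2. It could hold no UMI of Siglech, Xcr1, Clec9a, Cd3d, Cd3e or Cd3g, and at most 1 of Cd79a and Ms4a1. The rule was met by 86 of 42682 kept cells, those with at least 300 genes and at most 20% of UMIs from mitochondrial genes.

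The libraries came from 3 Stingfl/fl Cdh5-Cre+ mice, called knockout, and 3 littermate Stingfl/fl Cdh5-Cre- mice, called control, with 1 library per mouse. Cdh5-Cre is driven by the promoter of an endothelial cadherin, and both groups carry the floxed Sting allele. Every mouse ate chow until 8 weeks of age and then had western diet with CCl4, a liver toxin, for 12 weeks, which is used to induce metabolic dysfunction-associated steatohepatitis (MASH). Whole liver was dissociated and sequenced from the 3′ end. The labels call the cell type liver sinusoidal endothelial cells, while the median cell of the 86 held 0 UMIs of 7 endothelial markers and 17 cells held 2 or more. Strain and sex were not given in the sources used here.

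Monocytes leave the bone marrow, circulate, and enter injured tissue. Classical mouse monocytes carry Ly6C and the chemokine receptor CCR2, which follows CCL2 into inflamed tissue, and they can become macrophages or dendritic-like cells. Non-classical monocytes patrol the vessel wall, depend on the fractalkine receptor CX3CR1 and carry TREML4 and ACE. In the injured liver, monocytes replace resident macrophages, called Kupffer cells, that are lost. Neutrophils and the granulocyte and monocyte precursors of the marrow share several of these transcripts with monocytes, Lyz2 and Ly6c2 among them.

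The label did not hold for the cells as a whole. Of the 86 cells, 41 held at least 100 UMIs of S100a8 and S100a9 per 10000 UMIs, the 2 calprotectin genes that are most abundant in neutrophils. Another 15 held at least 20 UMIs per 10000 of Elane, Mpo, Ctsg and Prtn3, the proteases and peroxidase packed into primary granules at the promyelocyte stage. A further 6 held at least 10 UMIs per 10000 of hepatocyte, bile duct, mesothelial or fibroblast genes (such as Alb, Krt19 and Col1a1), and 24 cells remained. These 4 sets were drawn in this order after the values were seen and are described without a test. Some S100a8-rich cells also passed a later bound, with Elane, Mpo, Ctsg and Prtn3 up to 129 UMIs per 10000. The genes of the third set reached 41.8 UMIs per 10000 in S100a8-rich cells. Since the rule was itself made of measured values, the levels of its genes are also description. The cells are therefore called Csf1r- and Lyz2-positive cells below, and the sets by the genes that drew them: S100a8-rich, granule-gene and parenchymal-gene cells, and the remaining cells.

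**Figure D1:**
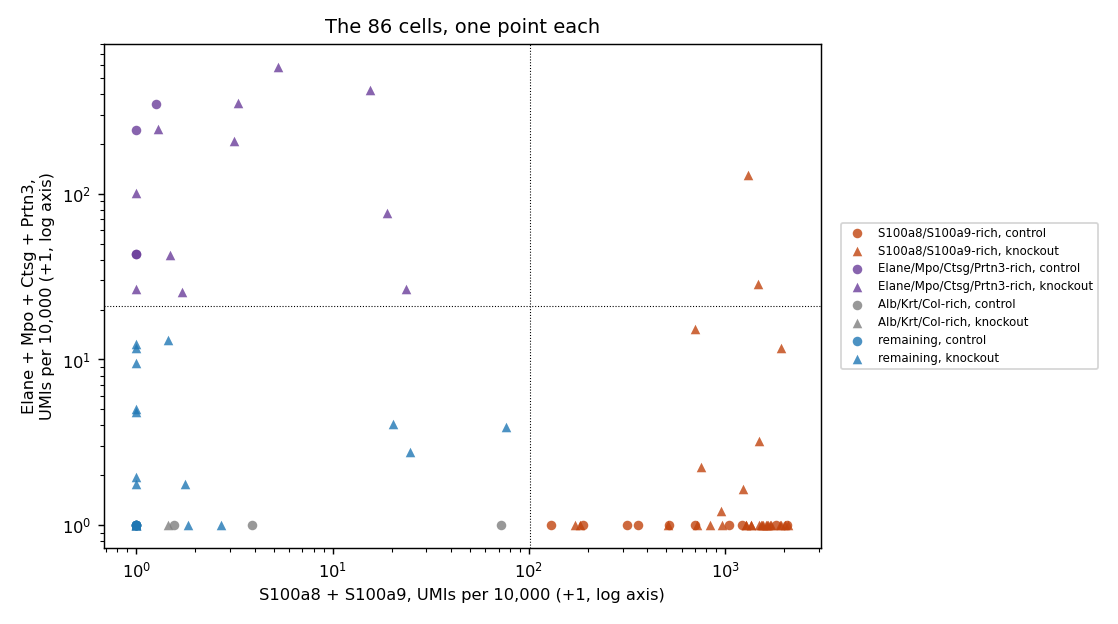
Each point is 1 of the 86 cells, plotted by its S100a8 and S100a9 UMIs per 10000 (horizontal, log axis) and its Elane, Mpo, Ctsg and Prtn3 UMIs per 10000 (vertical, log axis), with 1 added to both; circles are control and triangles knockout cells, and dotted lines mark the bounds of 100 and 20. The 41 S100a8-rich cells lie to the right of the vertical line with a median of 1302 UMIs per 10000, some of them also above the horizontal line. The 15 granule-gene cells lie above the horizontal line and to the left of the vertical line.

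The genes that define a monocyte were unevenly spread over the sets. Ccr2 was found in 31 of the 86 cells and F13a1, the monocyte's coagulation factor subunit, in 33, and 40 cells held at least 1 UMI of the pair. In the S100a8-rich set only 1 of 41 cells held a Ccr2 UMI and 2 held F13a1, against 11 and 11 of the 15 granule-gene cells and 19 and 19 of the 24 remaining cells. Ly6c2 was found in 60 cells, namely 34 S100a8-rich, 12 granule-gene, 14 remaining and none of the parenchymal-gene cells. Ace, the angiotensin-converting enzyme of non-classical monocytes, was found in 3 cells in all, with at most 2 UMIs. Treml4 was found in 21 cells, of which 16 were S100a8-rich.

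The 7-gene sum was reached in different ways. Ly6c2 alone gave the whole sum in 22 cells, 21 of them S100a8-rich. Without Cx3cr1 and Treml4, 12 cells would have missed the bound, 10 of them S100a8-rich. The parenchymal-gene cells reached it with Fn1, fibronectin, found in 6 of 6, and Cx3cr1, found in 4 of 6. Ly6c2, Ccr2 and F13a1 stood together in 17 cells, 11 remaining and 6 granule-gene. The plot of the rule's genes by set shows this split.

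**Figure D2:**
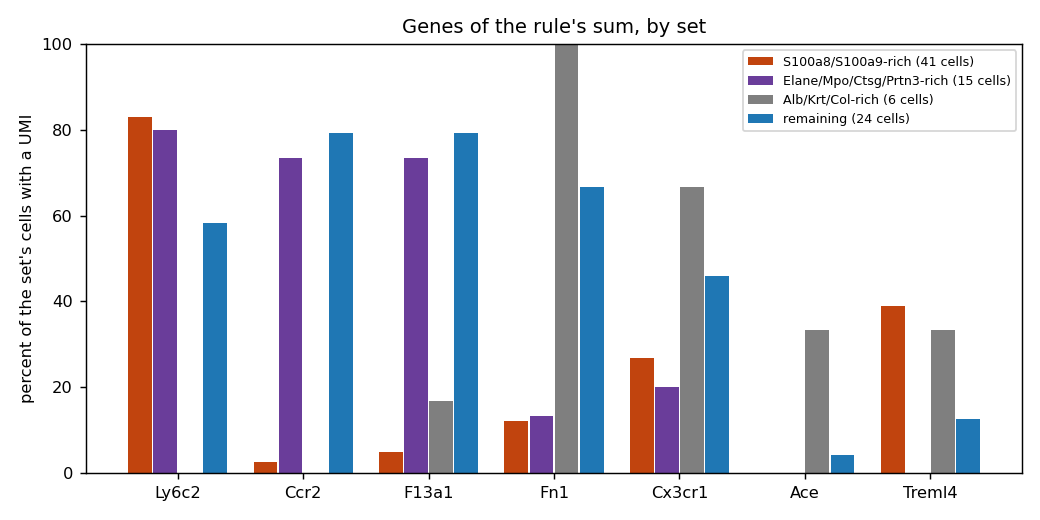
Bars give the percent of cells in each set (vertical axis, from 0 to 100) with at least 1 UMI of each gene of the 7-gene sum (horizontal axis), with the number of cells in the legend. Ccr2 and F13a1 bars are high in the granule-gene and remaining sets (11 of 15 and 19 of 24 cells for each gene) and near 0 in the S100a8-rich set (1 and 2 of 41 cells).

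Free RNA and shared expression bear on single UMIs. Among T cells of the same libraries (at least 2 UMIs of the Cd3 genes, median depth 5227 to 6539 UMIs), 23.7% to 38.2% held a Ly6c2 UMI and 19.5% to 25% a Ccr2 UMI. T cells can express both genes themselves. Csf1r was found in 0.257% to 2.67% of T cells, Lyz2 in 0.513% to 3.54%, and F13a1 in 0.0796% to 0.469%. S100a8 was found in 0.995% to 4.09% of T cells in 5 libraries and in 12.5% in knockout 1. The 86 cells were deeper than their libraries, with medians of 6392 to 38762 UMIs per library against 4786 to 7721 for kept cells.

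The rule's bounds cut through the cells. Of the 86, 41 held exactly 1 Csf1r UMI, and 392 cells that met every other condition held 0. At the sum, 11 cells stood at 3 and 18 otherwise like cells at 2. At Lyz2, 9 cells stood at 2 UMIs and 37 otherwise like cells at 1. Of 1846 cells with Csf1r and the sum, 227 had 2 or more Lyz2 UMIs. The 1279 cells that met all but the Lyz2 condition were of another kind, with Krt18 in 96.9%, Krt19 in 88.8%, Epcam in 86.6% genes of bile duct epithelium, Fn1 in 90.1% and the hepatocyte gene Alb in 87.3%, and the leukocyte gene Ptprc in 12.98%. Ptprc was found in 40 of 41 S100a8-rich cells and in each of the other 45.

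On mouse genome build mm10 (GRCm38, GENCODE M21), Csf1r lies at chr18:61100598-61132149 and Ccr2 at chr9:124101950-124113557, both on the plus strand. F13a1 lies at chr13:36867178-37050244 and Ly6c2 at chr15:75108158-75111970, both on the minus strand. Ly6c2 has a near-identical neighbour, Ly6c1, at chr15:75044018-75048830. The 86 cells held 1290 UMIs of Ly6c2 and 0 of Ly6c1, and how reads shared by both were assigned is not given in the sources used here, so the Ly6c2 counts carry that uncertainty. Elane (chr10:79886247-79888215) and Prtn3 (chr10:79874476-79883174) are neighbours, as are S100a8 (chr3:90668978-90670035) and S100a9 (chr3:90692632-90695721).

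The S100a8-rich cells also held neutrophil genes that did not draw the set. The 9 neutrophil markers other than S100a8 and S100a9 were each detected in it, and their sum ran from 5.11 to 1217 UMIs per 10000 with a median of 438, against a median of 0.686 in granule-gene and 0.835 in remaining cells. Retnlg, a secreted resistin-like protein of mature neutrophils, was found in 39 of the 41 cells at 7337 CPM (UMIs per 1000000 of the set's pooled UMIs), against 161 CPM in the kept cells outside the rule. Camp and Ngp, cargo of secondary granules, were found in 29 and 31 cells at 26463 and 20274 CPM. Ly6g, the defining surface gene of mouse neutrophils, was found in 33 of the 41 cells and in 0 of the other 45. Were these 45 independent draws, a share of up to 6.67% with a UMI would be allowed. They are not, since 26 of the 45 came from knockout 1, so no bound is read from them. Csf3r, the G-CSF receptor, was found in 38 cells.

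Inflammatory genes stood high in the same cells, and some of them also in the remaining cells described below. Cxcl2, a neutrophil-attracting chemokine, was found in 40 of the 41 at 6746 CPM against 258 CPM in kept cells outside the rule. Acod1, which makes itaconate in activated myeloid cells, was found in 37, Slc7a11, the cystine transporter, in 38, and Il1b in 30. Clec4e, a receptor for mycobacterial cord factor and dead cells, was found in 39 cells. MHC class II genes, which load peptides for CD4 T cells, were at a median of 0 UMIs per 10000. Depth in the set ran from 3506 to 74876 UMIs, and all 4 cells of the 86 over the common doublet score lay in it.

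Cells rich in S100a8 and S100a9 were common outside the rule. In all, 1100 kept cells passed the same bound of 100 per 10000, and 41 of them, 3.73%, met the rule. Their share of kept cells was 1.008% in control 1, 0.777% in control 2 and 5.69% in control 3, and 5.96%, 2.26% and 1.35% in knockout 1, 2 and 3. Control 3 and knockout 1, the libraries with the most cells under the rule, were thus also the richest in S100a8-rich cells outside it. In knockout 1, the 26 cells under the rule and the 404 outside it had S100a9 at 79793 and 70474 CPM, Retnlg at 6662 and 4506 CPM, Camp at 30904 and 26959 CPM, and Lyz2, a rule gene, at 6965 and 5948 CPM. Median depth in these 2 groups was 15056 and 10657 UMIs. Other libraries with fewer cells under the rule differed more: in knockout 3 (2 cells), Retnlg was at 25022 against 7205 CPM outside it and Camp at 2591 against 26271 CPM, and in knockout 2 (3 cells), Camp was at 6295 against 17481 CPM. In control 3 (9 cells), Retnlg was at 7470 against 6355 CPM and Camp at 11641 against 11418 CPM. In knockout 1, 8.91% of the 404 cells outside the rule held a Csf1r UMI.

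The 15 granule-gene cells were drawn on 4 genes, whose levels restate that choice. Their pooled levels were 6014 CPM for Prtn3, 5745 for Elane, 4381 for Mpo and 3553 for Ctsg, against 41 to 118 CPM in kept cells outside the rule. Ms4a3, a gene of granulocyte and monocyte precursors, was found in 11 of the 15 at 884 CPM. Kit, a receptor of blood precursors, and Cd34, a surface glycoprotein of such cells, were found in 10 and 11 cells, Flt3 in 7, and Mki67, a gene of dividing cells, in 12. Myb, a factor of immature blood cells, was found in 13. Mki67 was not limited to this set: of the 26 S100a8-rich cells of knockout 1, 9 held Mki67, 7 Prtn3 and 6 Elane. In the S100a8-rich cells of the other libraries these genes were at 0. Plac8 was found in 15 of 15 at 5369 CPM and Ccl9, a chemokine, in 15 of 15. Csf1r stood at a median of 1 UMI and Ly6c2 at 40.

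The set was deep and uneven across mice. Its median depth was 35182 UMIs against 11161 in the S100a8-rich set, 11 of its 15 cells had over 30000 UMIs, and none was over the common doublet score. It held 2 cells of control 1, 1 each of control 2 and control 3, 11 of knockout 1, and none of knockout 2 or 3. In control 1, these 2 cells gave 270 Ly6c2 UMIs, all the Ly6c2 UMIs of that library's 3 cells under the rule. Of kept cells with the same granule gene level but without the S100a8 level, 9, 8 and 1 came from the controls and 44, 5 and 9 from the knockouts, in replicate order, and 15 of these 76 met the rule.

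The 24 remaining cells held Ccr2 and F13a1 in 19 cells each. Their median cell held 3 UMIs of Csf1r, 55.5 of Lyz2, 3.5 of Ccr2 and 6 of F13a1. Leading genes outside the rule were Ccl9 in 22 of 24 cells, Ms4a6c, a membrane gene of monocytes and macrophages, in 22, Lgals3, galectin-3, in 24, and Tgfbi, a matrix gene of monocytes, in 19. Inflammatory genes were among the leading ones too. Ccl4 was found in 18 cells at 5092 CPM against 377 CPM in kept cells outside the rule, Nlrp3 in 21 and Clec4e in 15. Ctss, a lysosomal protease, was found in 24, Cybb, the phagocyte oxidase subunit, in 22, and F10, coagulation factor X, in 13. Kupffer cell markers were nearly missing: 6 of the 7 (Clec4f, Vsig4, Timd4, Cd5l, Marco and Folr2) were at 0 in the 24 cells and in all 86. C1qb was found in 2 of the 24 cells. The rule had already set an upper bound on C1qa, C1qb and C1qc, the genes by which macrophages were taken here. The low values of C1qb and of the Kupffer cell markers are therefore not independent of the choice of cells. No cell was over the common doublet score. Natural killer cell markers were all at 0.

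The remaining cells were parted by the sum of H2-Aa, H2-Ab1 and Cd74, the last being the invariant chain, after the values were seen. In 13 cells these MHC class II genes summed to at most 3.2 UMIs per 10000, and in the other 11 they ran from 52 to 244. The low cells held F13a1 in 13 of 13 (median 11 UMIs), Ccr2 in 12, Ly6c2 in 9, and Prtn3 in 11. The high cells held F13a1 in 6 of 11, Ccr2 in 7, Ly6c2 in 5, and Itgax, the integrin CD11c, in 9. Il1b was found in 8 of the 11 high and 3 of the 13 low cells, and Chil3, a lectin of classical monocytes, in 1 and 7. Of the low cells 10 were from knockout 1 and 1 each from control 2, knockout 2 and knockout 3. The high cells came from 5 libraries (1 of control 2, 3 of control 3, and 4, 2 and 1 of the knockouts).

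Within the remaining cells the 5 libraries that held any gave a mixed picture. Pooled F13a1 was 317 CPM in control 2 and 601 CPM in control 3, and 719, 380 and 72.5 CPM in knockout 1, 2 and 3. Pooled Ccr2 was 555 and 134 CPM in these controls, and 442, 148 and 308 CPM in the knockouts. Ly6c2 was at 79.3 and 33.4 CPM in the controls, and at 841, 0 and 36.2 CPM in the knockouts, so that it stood high in knockout 1 alone. Control 1 held no such cell. With 2 or 3 cells in 4 of the 5 libraries, these levels rest on at most 18 UMIs a gene there, and the groups overlapped for all 3 genes.

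The 6 parenchymal-gene cells held little of the myeloid program. They held 2 or 3 UMIs of Lyz2, no Ly6c2 or Ccr2, and F13a1 in 1 cell. Fibroblast markers ran up to 134 UMIs per 10000 and bile duct markers up to 93, the latter with a median of 28.8. In the S100a8-rich cells bile duct markers had a median of 0 but reached 203 UMIs per 10000. Of the 6 parenchymal-gene cells 4 came from control 3 and 1 each from knockout 1 and knockout 2. Their mitochondrial share reached 10.99%, the highest of the 86.

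The gene lists of the analysis were summed per cell in each set, and medians are given in the order remaining, S100a8-rich, granule-gene and parenchymal-gene cells. The interferon-stimulated genes were at 34.6, 13.98, 12.97 and 17.55 UMIs per 10000. NF-κB and inflammatory cytokine genes were at 113, 197, 34.1 and 108 UMIs per 10000. Pooled over the cells of a set, they were at 17114 CPM in the remaining and 15717 CPM in the S100a8-rich cells. Genes of lipid uptake and handling were highest in the parenchymal-gene cells, at 39.6, 17.5, 13.6 and 61.4 UMIs per 10000. Classical monocyte genes outside the rule were lowest there, at 62.4, 99.0, 72.0 and 16.3 UMIs per 10000. Heat-shock and early genes of tissue dissociation moved with the sets, at 219, 127, 166 and 422 UMIs per 10000, and their part in the other values was not tested. These are levels in cells of different mice and depths, given without a test.

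The number of cells varied widely between mice of the same group. The controls held 3, 3 and 17 cells and the knockouts 52, 7 and 4, in replicate order. As a share of kept cells this was 0.0373%, 0.0333% and 0.349% in the controls, and 0.721%, 0.108% and 0.0567% in the knockouts. The exact 95% binomial intervals, which cover counting error only, were 0.0077% to 0.109% in control 1 and 0.539% to 0.944% in knockout 1. Knockout 1 was highest and control 3 next, and the groups overlapped. The mean share was 0.295% ± 0.370 (SD, n = 3) in knockout and 0.140% ± 0.181 (SD, n = 3) in control mice. The difference of 0.155 percentage points was within the spread between mice (exact two-sided permutation test, p = 0.5, where 3 against 3 mice cannot go below 0.1). Without knockout 1 the difference turned to -0.0579 percentage points, and without control 3 it was 0.26.

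**Figure D3:**
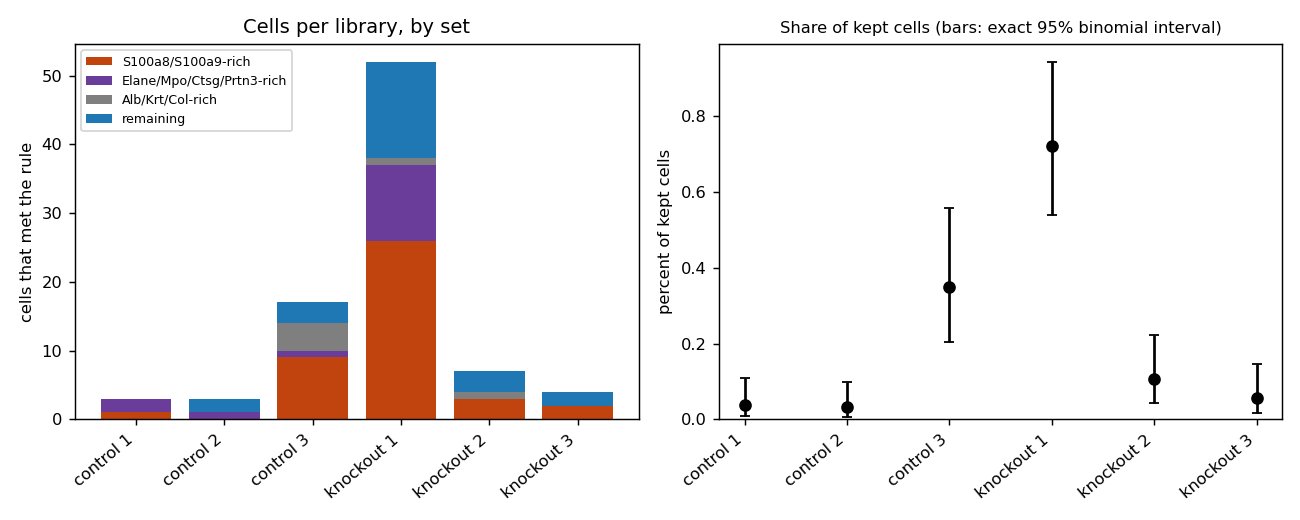
Left, number of cells that met the rule in each library, stacked by set; right, these cells as percent of kept cells, with exact 95% binomial intervals. Knockout 1 with 52 cells and control 3 with 17 hold 69 of the 86, and the other 4 libraries hold 3 to 7 cells each.

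A cut between classical and non-classical genes gave few cells. Cells with more Ace and Treml4 than Ly6c2 and Ccr2 UMIs numbered 1, 0 and 5 in the controls and 2, 2 and 0 in the knockouts, and 7 of these 10 were S100a8-rich. Their share of the cells was 20.9% ± 18.2 (SD, n = 3) in control and 10.8% ± 15.5 (SD, n = 3) in knockout mice (exact two-sided permutation test, p = 0.5). A further 9 cells had equal counts, and 15 of the 86 lay within 1 UMI of the cut. It is a range of 4 genes, not a cell type.

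The targeted gene could not be followed in these cells. Sting1, the receptor of cyclic dinucleotides at the endoplasmic reticulum, had 2, 0 and 3 UMIs in the controls and 23, 1 and 3 in the knockouts, 32 UMIs in 21 cells, and was too low to enter the test. In cells with a Cdh5 UMI and no Ptprc, Sting1 stood at 23.9, 26.2 and 24.9 CPM in the controls and 20.3, 15.3 and 20.7 CPM in the knockouts. The 3′ reads may lie outside the deleted exons, so that these values do not check the deletion.

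No gene was called between knockout and control mice in the Csf1r- and Lyz2-positive cells. Of 1704 genes tested on the UMIs summed per mouse with edgeR's quasi-likelihood test, 0 passed an adjusted p of 0.05 (0% of genes tested), 17 had an unadjusted p under 0.05, and DESeq2 called 0. The summed libraries were very unequal, from 33760 UMIs in control 2 to 833696 in knockout 1 over the tested genes. On counts simulated for this comparison, 0% of genes changed by 1 on the log2 scale were recovered, 30.5% of those changed by 2 and 88% of those changed by 3. The changed genes were not drawn from those of lowest mean level, so these shares do not cover such genes. False calls numbered 0, 2 and 9. In all, 43 genes (2.52% of those tested) were higher in every knockout than in every control mouse. Another 40 (2.35%) were lower, beside the 0% called. Without control 3, 1 of 1922 genes was called, Retnlg, named after its value was seen.

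Genes named by the smallest p can serve as a record of levels, none of which passed the test. Values are CPM over the UMIs of tested genes in control 1, 2 and 3 and then knockout 1, 2 and 3. The sums hold different mixes of the 4 sets. Over all genes, the cells of control 1 held 84809 UMIs, with 42126 and 38762 in its 2 granule-gene cells. Control 2 held 47787 UMIs, with 35182 in 1 granule-gene cell. Knockout 2 and 3 held no cell of that set, and the part of the sets in these values was not tested. H1f2, a linker histone, was at 70.7, 81.2 and 176 against 483, 254 and 205 CPM (log2 fold change 1.46 ± 0.56 (SE); edgeR adjusted p = 1.00, as for each gene here). Stk17b, a kinase of lymphoid and myeloid cells, was at 17.7, 27.1 and 169 against 220, 465 and 246 CPM. Both genes were without overlap between the groups. Irf8, the factor that directs precursors to the monocyte and dendritic fate, was at 70.7, 352 and 119 against 220, 522 and 882 CPM, and the groups overlapped. Skap2, an adaptor of integrin signalling, was at 88.3, 162 and 157 against 276, 254 and 390 CPM. Cd177, a neutrophil surface gene, was at 0, 0 and 157 against 445, 296 and 164.1 CPM, and its lowest knockout value stood just over its highest control value.

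Of the lower genes, Mif, a cytokine, was at 742, 921 and 483 against 264, 183 and 410 CPM (log2 fold change -1.33 ± 0.50 (SE)). Hspa5, the chaperone BiP of the endoplasmic reticulum, was at 3799, 2356 and 2120 against 1357, 1593 and 615 CPM. Calr, calreticulin of the same compartment, was at 2315, 1760 and 590 against 711, 677 and 226 CPM, with overlap. Atp5mpl, a subunit of ATP synthase, and Rapgef2, an exchange factor, had log2 fold changes of -1.29 ± 0.54 and -1.42 ± 0.60 (SE). Anxa2, annexin A2, was at 212, 244 and 452 against 708, 578 and 574 CPM, while Hsp90aa1 was at 1979, 3439 and 2340 against 1531, 1565 and 1416 CPM. The plot of named genes shows these values by mouse.

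**Figure D4:**
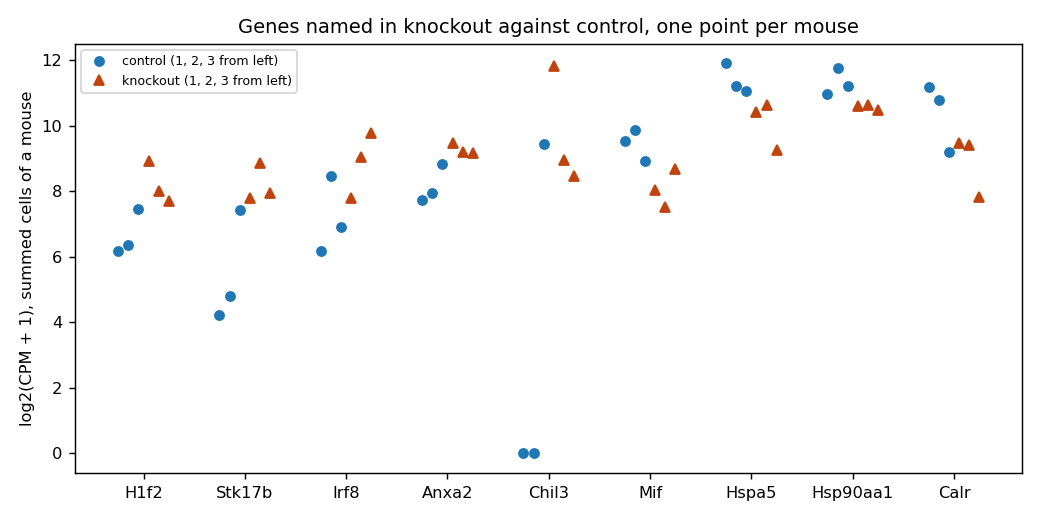
Each point is 1 mouse, with log2(CPM + 1) of the cells' summed UMIs on the vertical axis and genes on the horizontal axis; circles are control and triangles knockout mice, in replicate order from the left. H1f2, Stk17b and Anxa2 lie higher and Mif, Hspa5 and Hsp90aa1 lower in all knockout mice, with none passing the adjusted test. Irf8, Chil3 and Calr overlap. The mix of cell sets behind each sum differs between mice.

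Of the lists with at least 5 tested members, the neutrophil markers had the highest median, and without a call. Of the 11 markers 9 were tested, and these 9 had positive log2 fold changes, with a median of 1.66 against -0.04 over all genes tested, and 0 called. S100a9 was at 2703, 0 and 28048 CPM in the controls and 53405, 17724 and 27985 CPM in the knockouts, with overlap (log2 fold change 1.69 ± 1.90 (SE)). S100a8-rich cells were 1 of 3, 0 of 3 and 9 of 17 in the controls, and 26 of 52, 3 of 7 and 2 of 4 in the knockouts. This set was drawn on S100a8 and S100a9, which are in the list, so its share and the list are not independent. Its part in the list's values was not tested. With the S100a8-rich cells left out, no neutrophil marker was abundant enough to be tested, and 0 of 1364 genes were called. Without 1 mouse each, the list's median ran from 0.97 (without knockout 1) to 4.62 (without control 3).

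The other lists gave 0 calls too. Over all genes tested, 789 of 1704 had a positive log2 fold change, and the counts of direction below were not tested. Classical monocyte genes outside the rule had 7 of 9 tested genes positive (median log2 fold change 0.49), with Chil3 at 0, 0 and 690 against 3620, 494 and 349 CPM and Plac8 at -0.73 ± 0.61 (SE). Monocyte transcription factors had 9 of 10 positive (median 0.39), among them Klf2 at 0.65 ± 0.49 (SE). Interferon-stimulated genes had 1 of 4 positive (median -0.31) and MHC class II genes 1 of 4 (median -0.12). Genes induced by interferon gamma had 2 of 5 positive (median -0.07), with the chemokine Cxcl10 at 1.42 ± 0.89 (SE). NF-κB and cytokine genes were split 8 to 8 (median 0.10), with Icam1 at -1.16 ± 0.72 (SE).

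Trafficking receptors and integrins were split 4 to 4 (median -0.01), with Itgam at 0.79 ± 0.68 and Itgb1 at -0.54 ± 0.48 (SE). Macrophage and scar-associated genes were split 5 to 5 (median 0.04), with Lgals3 at 0.97 ± 0.61 and Ctsl at -0.73 ± 0.59 (SE). Fc, complement and pattern receptors had 4 of 6 positive (median 0.42), Fcer1g at 0.73 ± 0.59 (SE) among them. Lipid genes had 4 of 5 positive (median 0.38), with Plin2 at 0.69 ± 0.67 and Fabp5 at 0.87 ± 0.99 (SE). S100, annexin and actin genes had 13 of 15 positive (median 0.52). Cell cycle genes had 5 of 6 positive (median 0.29), with Birc5 at 1.67 ± 1.33 and Tubb5 at 0.67 ± 0.69 (SE). Heat-shock and early genes of tissue dissociation had 7 of 24 positive (median -0.21), with Hspd1 at -0.65 ± 0.52 (SE). Of the 14 STING pathway components 1 was tested, Samhd1, at 0.25 ± 0.53 (SE).

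The rule genes themselves varied widely between mice. Lyz2 was at 165, 502 and 2268 CPM (over all UMIs of the cells) in the controls and 4779, 1900 and 1660 CPM in the knockouts. Ly6c2 was at 3184, 20.9 and 122 CPM in the controls and 838, 83.5 and 143 CPM in the knockouts, so that control 1 was highest and the groups overlapped. Ccr2 ranged from 11.8 to 243 CPM and F13a1 from 11.8 to 292 CPM over the 6 mice, and Fn1 from 0 to 302 CPM. Csf1r was at 35.4, 105 and 185 CPM in the controls and 97.4, 230 and 85.9 CPM in the knockouts. Cx3cr1 ranged from 0 to 100.2 CPM, Treml4 from 0 to 67.2 and Ace from 0 to 20.9 CPM. Knockout 1 held 87.4% of all F13a1 and 75.8% of all Ccr2 UMIs of the 86 cells.

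The cells were set beside type 2 dendritic cells, which take up antigen and present it on MHC class II. They were taken as cells with a Flt3 UMI and at least 2 UMIs of Cd209a, Clec10a and Mgl2, under the same exclusions, and numbered 7, 7, 14, 9, 6 and 9 in control 1 to 3 and knockout 1 to 3. In a paired edgeR fit over the 6 mice, without the genes of either rule, 147 of 1602 genes were called (9.18%), 51 higher and 96 lower in the Csf1r- and Lyz2-positive cells. Both classes were drawn on transcripts of these same cells, so nothing is read from that share. The count fell to 71 without control 3, 59 without knockout 1 and 59 without knockout 3. Without the S100a8-rich cells, 162 genes were called, 100 of them among the 147.

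Among the higher genes, Clec4e was found as 781 UMIs in the Csf1r- and Lyz2-positive cells and as 2 in the dendritic cells, with 199 to 2203 CPM against 0 to 33.5 CPM over the 6 mice. Cebpb, a factor of inflammatory myeloid genes, was higher in each mouse, at 532 to 2954 CPM against 28.8 to 505 CPM (log2 fold change 3.40 ± 0.36 (SE), edgeR adjusted p = 0.000234). Cxcl2 had a log2 fold change of 5.44 ± 1.22 (SE; edgeR adjusted p = 0.0472), which lost its call without the S100a8-rich cells (adjusted p = 0.148) and in 5 of the 6 fits without 1 mouse (adjusted p from 0.0575 to 0.147). Ctsd, cathepsin D, was 2.81 ± 0.38, Txn1, thioredoxin, 2.08 ± 0.27, and Plin2, which coats lipid droplets, 2.13 ± 0.39 (SE) higher on the log2 scale. Mxd1, Cd24a, Phlda1 and Msrb1 were higher by 1.95 to 2.56, with Phlda1 losing its call without control 3 (adjusted p = 0.057). Without the S100a8-rich cells Msrb1 was at 0.89 (edgeR adjusted p = 0.104).

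Genes of antigen presentation were among the lower ones. Of the 6 tested MHC class II genes 5 were called lower and 0 higher, with a list median of -3.46 against 0.00 over all genes tested, of which 5.99% were called lower. H2-Ab1, a class II chain, was at 38.02 to 896 CPM in the 6 mice against 4150 to 6938 CPM in dendritic cells (log2 fold change -3.69 ± 0.56 (SE), edgeR adjusted p = 0.00626). H2-DMa, which loads peptide, was at -2.76 ± 0.32 (SE). H2-Aa and H2-Eb1 had log2 fold changes of -3.50 ± 0.70 and -3.69 ± 0.86 (SE) and lost their calls without the S100a8-rich cells (adjusted p = 0.0734 and 0.0719) and in 4 of the 6 fits without 1 mouse each (0.059 to 0.0895 and 0.0692 to 0.141). Cd83, a gene of activated dendritic cells, was at -2.80 ± 0.41, and Klrd1 at -3.77 ± 0.52 (SE). Srgap3, Grap2, Grasp and Ust had log2 fold changes from -3.97 to -2.92, and Ust lost its call in 3 of the 6 fits without 1 mouse.

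**Figure D5:**
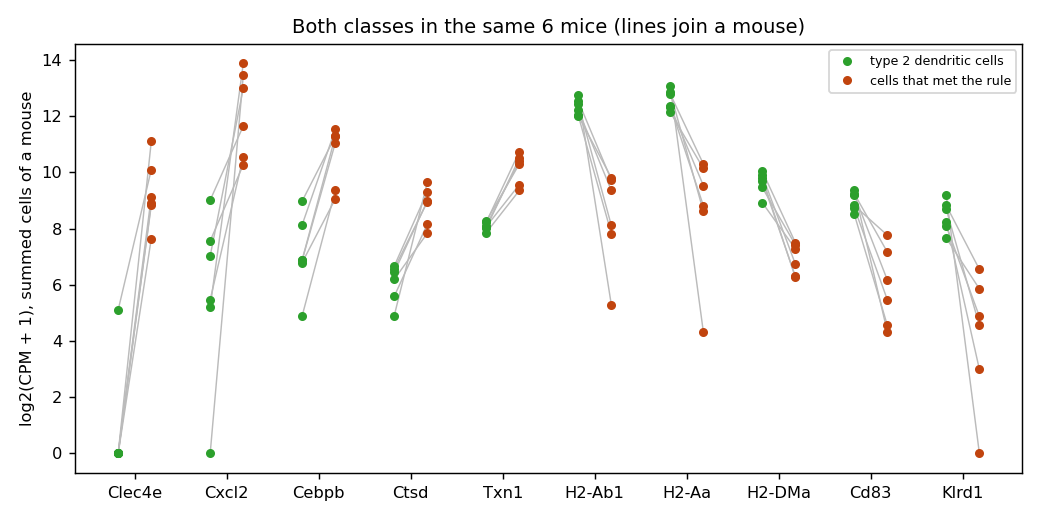
Each grey line joins the type 2 dendritic cells (left, green) and the Csf1r- and Lyz2-positive cells (right, red) of 1 mouse, with log2(CPM + 1) of summed UMIs on the vertical axis and genes on the horizontal axis. Clec4e, Cxcl2, Cebpb, Ctsd and Txn1 are higher and the MHC class II genes, Cd83 and Klrd1 lower in all 6 mice.

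Over all genes tested in this comparison, 3.18% were called higher and 5.99% lower. Of the lists, 3 of 4 tested classical monocyte genes outside the rule were called higher, with a list median of 2.13. They were Clec4e, Msrb1 and Cd14, the endotoxin co-receptor at 2.31 ± 0.39 (SE). Pooled by set, the full list was at 9452 CPM in S100a8-rich, 7582 in granule-gene, 6070 in remaining and 1614 in parenchymal-gene cells. Clec4e was at 903 CPM in S100a8-rich and 369 CPM in remaining cells, and Msrb1 lost its call without the S100a8-rich cells. These calls are therefore not read as a sign of monocytes. NF-κB and cytokine genes had 2 called higher and 1 lower of 16, macrophage genes 2 higher of 6 (Ctsd and Ctsb), and cell cycle genes 2 higher of 5 (Stmn1 and Hmgb2). Dissociation genes had 4 called lower of 23, Hspa1a at -2.17 ± 0.37 (SE) among them. Interferon-stimulated genes had 0 called of 3. S100a4, a calcium-binding protein of motile cells, was called lower at -2.62 ± 0.44 (SE), and the integrin Itgb7 lower at -2.54 ± 0.43 (SE).

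Macrophages with 5 or more UMIs of the C1q genes under the same exclusions numbered 11 in the series, 1, 0 and 4 in the controls and 1, 4 and 1 in the knockouts. They were too few for a comparison with the 86 cells.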

How the data were processed

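Single-cell libraries of dissociated liver were analysed for 3 knockout and 3 control mice. The deposited matrices hold raw UMI counts per gene and barcode (44656 barcodes, 31253 genes). Per the submitters' processing notes, Cell Ranger 7.1.0, Seurat 4.1.1 and mm10 were used; the annotation and the setting for shared reads were not given in the sources used here. Library totals ran from 55017937 to 73867890 UMIs. The members and gene lists were chosen with earlier results of these data known.

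Barcodes were filtered, the rule applied, and counts summed per mouse. Doublets were scored with Scrublet (scanpy 1.11.5, Python 3.11.15), not removed; its automatic threshold marked 0 cells in control 2 and 1 in control 3, so a common score of 0.267 was also tried. Libraries shared 5 to 25 barcode sequences. Sums were tested with edgeR 4.0.16 (R 4.3.3; TMM, filterByExpr, quasi-likelihood, Benjamini-Hochberg, threshold 0.05) and DESeq2 1.42.0, and tested on simulated data. CPM in fits is over TMM-scaled UMIs of tested genes, otherwise over all UMIs. Shares were compared by exact permutation tests (scipy 1.17.1).

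Genes named were those of the rule; in knockout against control, the 5 of smallest p each way, 2 per list with at least 5 tested members, and Sting1; against dendritic cells, the 10 of largest fold change each way with mean log2 CPM of at least 5 and 1 direction in every mouse. Other genes, among them those describing the 4 sets, were chosen after their values were seen. Alternatives and their effect are given in the closing section.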

Additional observations from a re-analysis of the deposited data

How the results depend on the processing

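The difference in the share of kept cells kept its direction under 6 other settings and in 5 of 6 fits without 1 mouse, and reversed without knockout replicate 1, where it was -0.0579 percentage points; without 1 mouse it ranged from -0.0579 to 0.274. The non-classical share rests on 10 cells, 7 of them S100a8-rich, and the groups were not told apart (exact two-sided permutation test, p = 0.5). Its difference stayed negative throughout, from -20.6 to -3.9 percentage points without 1 mouse. Genes called between knockout and control stayed at 0 under 9 settings, DESeq2 among them, and were 3 of 15674 with no filter on low counts (Ankrd35, Cxcl12 and Ly6d) and 1 of 328 without cells holding other cell types' markers (Ngp, 5 libraries), genes named after their values were seen. Without 1 mouse the count ranged from 0 to 1, the 1 being Retnlg without control replicate 3. With a replicate block 0 of 2210 genes were called. The correlations of same-numbered mice were 0.21, -0.04 and -0.29, and so few values from so few cells cannot decide whether the mice were paired. Against dendritic cells the count of 147 was 266 with DESeq2 and 491 with no filter, and ranged from 59 to 205 without 1 mouse (71 without control replicate 3, 59 without knockout replicate 1 and 59 without knockout replicate 3). The causes were not tested.

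Among named genes of the knockout comparison, none called, a few changed sign. In the non-classical range only, Cxcl10 was -0.157, Fcer1g -0.0102, Plin2 -0.494 and Hspa5 0.0734 on the log2 scale. Plin2 was -0.326 under the stricter rule and Fcer1g -0.00336 without cells holding other markers. Without 1 mouse, Plac8 ranged from -1.09 to 0.11, Icam1 from -1.55 to 0.0276 and Fabp5 from -0.699 to 2.02.

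The comparisons of non-classical with classical cells and of the 86 cells with C1q macrophages, and that of both genotype effects, were not run, since no library had 10 cells in both classes. The minimum of 10 left 1 library for dendritic cells, so a minimum of 3 was used, chosen after seeing the data, as were the common doublet score and the fits without S100a8-rich cells. With 3 to 52 cells per mouse, depth limits every value.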
